A study of Mus musculus with 13 samples.

Results

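The genes described here are 37 interferon response genes, chosen by name from a count table of 49315 mouse gene identifiers. Earlier results of these data were known when they were chosen, so their counts are not an independent test of the set. All 37 were among the 16496 genes with enough reads to be tested. RNA was sequenced from skeletal muscle of mice in 13 libraries to ask how loss of the microRNA locus miR-181a2b2 and a change of diet alter muscle RNA. The mice either were homozygous for the floxed locus, written flox here and called WT in the sample titles, or were systemic knockouts of it, written KO. The chow groups held 3 flox libraries (replicates 2, 3 and 4) and 3 KO libraries (replicates 1, 2 and 3), and the groups on the diet labelled HFSC, which the labels do not spell out, held 4 flox libraries (replicates 1 to 4) and 3 KO libraries (replicates 2, 3 and 4). The series names hindlimb ischemia, but no label says for a library which limb was taken or when, and the labels used here give neither strain, age, nor the Cre line or cell stage in which the locus was deleted. Libraries are not said to come from separate animals, so a p-value reflects only how far these samples spread, and part of that may be technical. In every list of values below, libraries stand in the replicate order just given.

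Interferons are secreted proteins made by cells that sense viral nucleic acid or other danger. Type I interferon binds a receptor whose kinases activate STAT proteins, and STAT2 and IRF9 then act in the factor ISGF3, which switches on genes that carry an interferon-stimulated response element in their promoters. Type II interferon acts through a separate receptor, and its target genes often carry gamma-activated sites. Skeletal muscle holds fibres and also macrophages, endothelial cells and fibroblasts, all of which can respond to interferon, so a level in whole muscle is a sum over these cells.

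The promoters below were printed to show the letters shared by genes of different roles. For 26 of the 37 genes, RefSeq's table of promoters on build GRCm38.p6 holds a window from 250 bases before the start site to 50 bases after it. The motif searched, GAAANNGAAA on either strand (TTTCNNTTTC when read from the other strand), is the core of the interferon-stimulated response element. Neighbouring matches may overlap by one GAAA. It was present in 16 of the 26 genes (61.5%) and in 1079 of 27025 genes with a promoter in the table (3.99%), or 1131 of 32851 promoters (3.44%). All 5 GTPase genes in the table, both RNA sensors, 3 of 4 IFIT genes, 2 of 4 OAS genes, 2 of 5 other effector genes, 1 of 3 genes for ISG15, ubiquitin and ADP-ribose enzymes and 1 of 3 transcription factor genes (Stat2) held it. A gamma-activated site, TTCNNNGAA, was present in 6 of the 26 genes (23.1%), in 2582 of 27025 genes with a promoter in the table (9.55%) and in 8.3% of all promoters. Each match is a description of letters in this window and not a measured binding site.

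The 250 bases before the start site are given for the gene of each of 4 classes with the smallest p between genotypes on chow, and for Ifit3b, which was added after its values were seen. The motif is in capitals and all sequences run 5′ to 3′ on the strand of the gene.
Irf7: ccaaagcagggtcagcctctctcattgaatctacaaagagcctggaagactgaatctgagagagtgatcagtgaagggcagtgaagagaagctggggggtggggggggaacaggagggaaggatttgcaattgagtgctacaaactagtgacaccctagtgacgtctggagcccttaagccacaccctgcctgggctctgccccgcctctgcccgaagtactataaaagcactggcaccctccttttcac
Oas1a: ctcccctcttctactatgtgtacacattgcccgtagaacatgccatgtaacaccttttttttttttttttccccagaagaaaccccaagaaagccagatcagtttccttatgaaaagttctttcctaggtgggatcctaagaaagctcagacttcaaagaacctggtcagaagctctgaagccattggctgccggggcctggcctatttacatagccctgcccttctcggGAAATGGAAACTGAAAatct
Ifit3: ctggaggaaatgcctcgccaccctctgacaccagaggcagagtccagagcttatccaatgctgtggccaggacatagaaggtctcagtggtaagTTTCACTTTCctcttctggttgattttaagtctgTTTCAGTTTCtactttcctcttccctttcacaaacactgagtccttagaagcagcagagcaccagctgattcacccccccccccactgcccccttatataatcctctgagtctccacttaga
Ifit3b: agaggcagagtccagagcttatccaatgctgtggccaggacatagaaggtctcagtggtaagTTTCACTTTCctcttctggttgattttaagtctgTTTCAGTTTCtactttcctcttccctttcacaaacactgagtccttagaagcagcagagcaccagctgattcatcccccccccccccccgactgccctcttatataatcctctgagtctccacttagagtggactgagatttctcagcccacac
Gbp2: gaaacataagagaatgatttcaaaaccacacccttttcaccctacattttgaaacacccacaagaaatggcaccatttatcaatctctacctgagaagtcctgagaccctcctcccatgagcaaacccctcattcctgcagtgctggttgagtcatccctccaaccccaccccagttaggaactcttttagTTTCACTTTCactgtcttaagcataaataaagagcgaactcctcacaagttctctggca
The Irf7 window (chr7:141266425-141266674, minus strand) held no match. Oas1a (chr5:120907526-120907775, minus strand) held overlapping matches that begin 20 and 14 bases before its start site. Gbp2 (chr3:142620413-142620662, plus strand) held 1 match 59 bases before its start site. Ifit3 (chr19:34583279-34583528) and Ifit3b (chr19:34607707-34607956), both on the plus strand, each held 2 matches spaced 34 bases apart. Once shifted by 32 bases, the windows of this gene pair were identical at 188 of 218 positions (86.2%), with an unbroken identical run of 169 bases that takes in both matches.

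The genes also lie near one another. In GENCODE M21 coordinates (GRCm38), 17 of the 37 fall in 6 clusters whose members are separated by less than 200 kb. The 4 IFIT genes span chr19:34550694-34650009, Oas1a, Oas2 and Oas3 span chr5:120730333-120907521, and Gbp2, Gbp3 and Gbp7 span chr3:142530342-142638008. Parp14, Dtx3l and Parp9 span chr16:35832874-35972605. Gene copies can share reads here, because the rule for multi-mapped reads is not given in the sources used here. Of the 50-base windows of Ifit3 transcripts, 51.2% also occur in Ifit3b, and 57.6% of those of Oas1a also occur in Oas1g, so the counts of these genes are uncertain in how reads were shared. Exons of 13 members overlap another annotated gene, by at most 16.8% of exon bases (Ifi35), and without a stated strand setting the reads of such pairs cannot be told apart. Mx2 is annotated as a polymorphic pseudogene.

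Total counts ran from 20830943 to 45710227 reads, so 3 reads, the limit set for a gene with none, amounted to 0.0633 to 0.152 CPM, the usual unit of counts scaled to library size. Library sizes were scaled by edgeR's trimmed mean of M values (TMM). Mir181a-2 had 4 reads over the 7 flox libraries and 0 over the 6 KO libraries, and Mir181b-2 had 0 in all, too few to check the genotype of any library. The 10 muscle fibre markers were detected in every library at a summed 95809 to 217420 CPM, whereas the 8 adipocyte markers summed to 73.6 to 307 CPM, although the extraction protocol names white adipose tissue. Chow flox replicate 4 stood apart from the other 2 libraries of its group. For 31 of the 37 genes its level lay within the range of the 3 chow KO libraries. It was above that range for Irf9, Mx2 and Parp9 and below it for Ifit1, Ifit2 and Gbp7. Summed over the 37 genes, the level was 551, 495 and 220 CPM in chow flox, 259, 201 and 235 CPM in chow KO, 287, 350, 367 and 376 CPM in HFSC flox and 300, 369 and 322 CPM in HFSC KO. The chow flox replicates 2 and 3 were thus the highest of all libraries, the chow flox replicate 4 and the chow KO libraries the lowest, and the HFSC libraries of both genotypes lay between. Because of that library, the counts over the 37 genes in contrasts with chow flox are also given without it. So are the counts of each list on chow and between diets in flox muscle, and single genes whose call on chow it changes. This library was singled out by the levels of these same genes. Counts and p-values from fits without it therefore show how far the calls depend on it, and are not support for a difference.

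**Figure D1:**
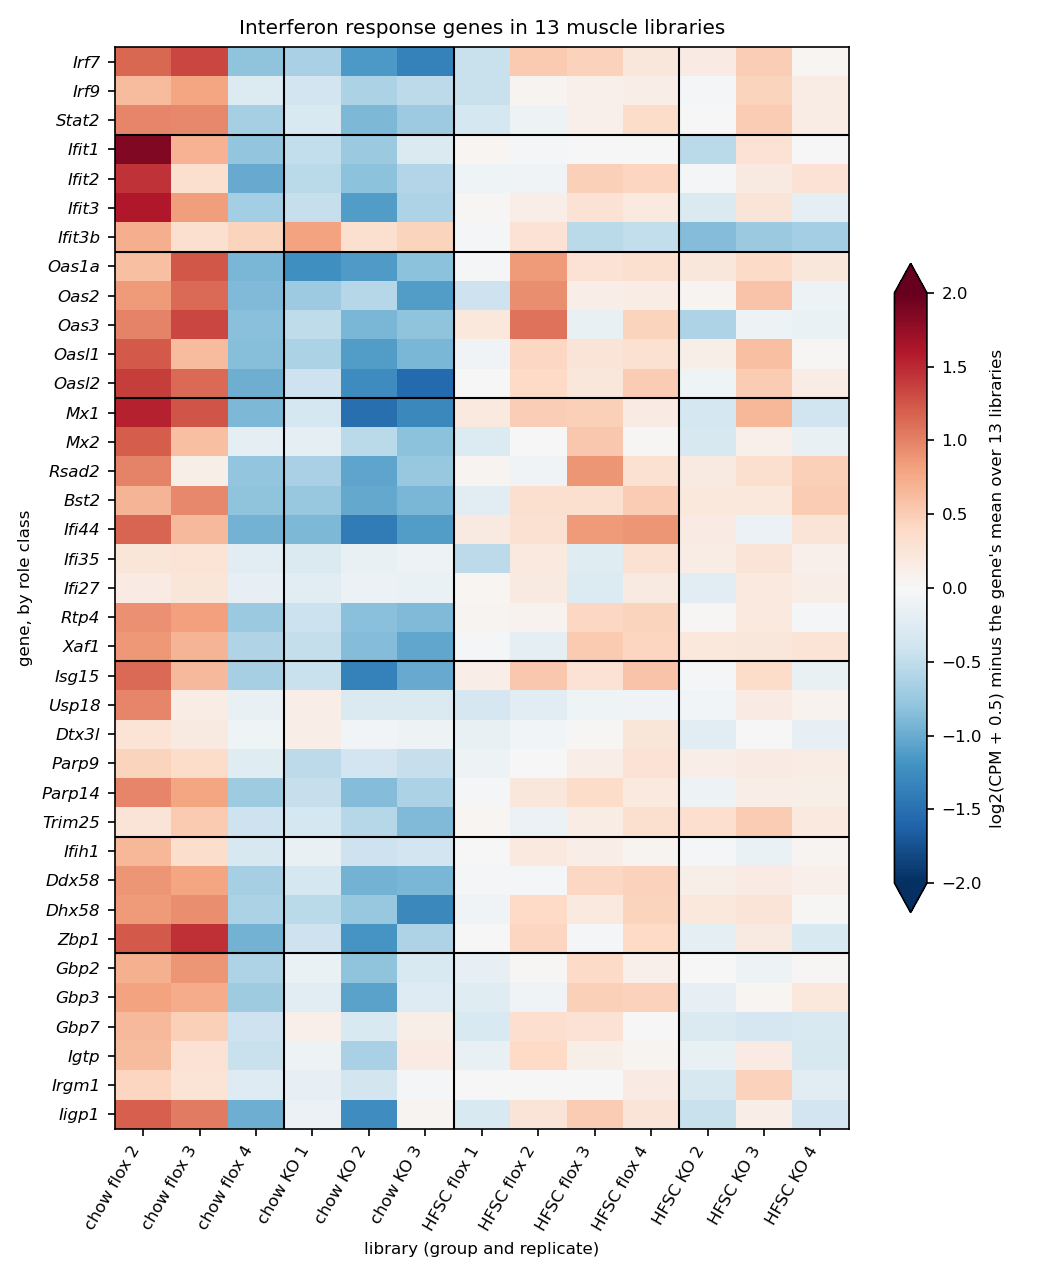
Level of each of the 37 interferon response genes (rows, grouped by role) in each of the 13 libraries (columns, grouped by genotype and diet), as log2(CPM + 0.5) minus the mean of the gene over all libraries. Chow flox replicates 2 and 3 are red for nearly all genes, chow flox replicate 4 is blue like the chow KO libraries, and Ifit3b is the row that is high in all chow libraries and low in HFSC KO.

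On chow, 21 of the 37 genes fell and none rose in KO against flox muscle, at an adjusted p under 0.05 in edgeR's quasi-likelihood test with Benjamini-Hochberg adjustment over all 16496 genes. Of all tested genes, 10.1% fell and 1.38% rose in this contrast. The median log2 fold change was -1.28 over the 37 genes and -0.01 over all tested genes. An unadjusted p under 0.05 was reached by 30 of the 37 and by 5579 of all 16496 tested genes. Oas1a, Irf7 and Ifi44 had the smallest p. Levels of the groups overlapped for most of them: all KO libraries were below all flox libraries for 3 of the 37 (Irf9, Mx2 and Parp9), against 13.9% of all tested genes. In whole muscle, fewer cells of a type and less RNA per cell cannot be told apart.

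The 21 calls rest on which libraries enter. Without chow flox replicate 4, 33 of the 37 fell (22.2% of all tested genes fell) and the median was -1.65, the exceptions being Ifi27, Ifi35, Dtx3l and Ifit3b. By contrast, leaving out replicate 3 of chow flox, or replicate 2 or 3 of chow KO, left 0 calls among the 37 and 0 among all 16496 genes. Leaving out chow flox replicate 2 left 0 of the 37, while 2.52% of all tested genes fell. With chow KO replicate 1 left out there were 10 (5.64% of all tested genes fell), and with HFSC KO replicate 4 left out, which enters only through the shared spread, there were 13 (7.35%). A fit of the chow libraries alone gave 0 of the 37, and over all tested genes 1 lower and 1 higher. A fit without the filter on low counts gave 11, with 3.79% of 32648 genes lower.

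On the HFSC diet, none of the 37 genes passed the test between KO and flox, against 0.0182% of all tested genes. Ifit3b alone had an unadjusted p under 0.05, as had 1721 of all 16496 tested genes, and DESeq2 also gave 0 calls. The median log2 fold change of the 37 was -0.11. The diet itself was tested within each genotype. In flox muscle none of the 37 genes passed (0.418% of all tested genes did, and DESeq2 gave 0 calls), with a median of -0.34. There 3 of the 37 had an unadjusted p under 0.05, as had 2105 of all 16496 tested genes. Without chow flox replicate 4, 10 of the 37 genes fell on HFSC in flox muscle, against 4.33% of all tested genes, and the median was -0.70. They were Ifit1, Ifit3, Stat2, Irf7, Irf9, Zbp1, Oasl2, Usp18, Gbp2 and Parp14, with log2 fold changes from -1.48 (Ifit1) to -0.70 (Parp14). Leaving out chow flox replicate 2 or 3 instead moved the median of the 37 genes the other way, to -0.07 and -0.11. The fall in flox muscle thus depends on which chow flox libraries are kept. In KO muscle 11 rose and 1 fell on HFSC, against 14.9% and 10.6% of all tested genes, with a median of 0.87 over the 37 and 0.02 over all. All HFSC KO libraries were above all chow KO libraries for 25 of the 37 genes, against 26.8% of all tested genes. These 12 calls became 23 once chow flox replicate 4 was left out, when 20.5% of all tested genes rose and 16.6% fell. They became 3 and 1 on leaving out replicates 2 and 3 of chow KO, when 8.24% and 5.68% of all tested genes rose. They became 5, 4 and 2 on leaving out replicates 2, 3 and 4 of HFSC KO, when 11.6%, 10.2% and 6.8% rose. In each of these fits 1 of the calls, Ifit3b, was lower.

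The genotype contrasts and the diet contrasts share libraries: chow KO enters both the genotype contrast on chow and the diet contrast in KO muscle. A low level in chow KO therefore shows in both, and neither is a repeat of the other. Whether the effect of genotype differed between diets was tested by the interaction. None of the 37 genes passed (0.0% of all tested genes did), and Irf9 had the lowest edgeR adjusted p, 0.0747. An unadjusted p under 0.05 was reached by 25 of the 37 and by 4811 of all 16496 tested genes. DESeq2 called 11 of them higher, against 8.14% of all tested genes, and without chow flox replicate 4 edgeR called 29 higher, against 19.2% of all tested genes.

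**Figure D2:**
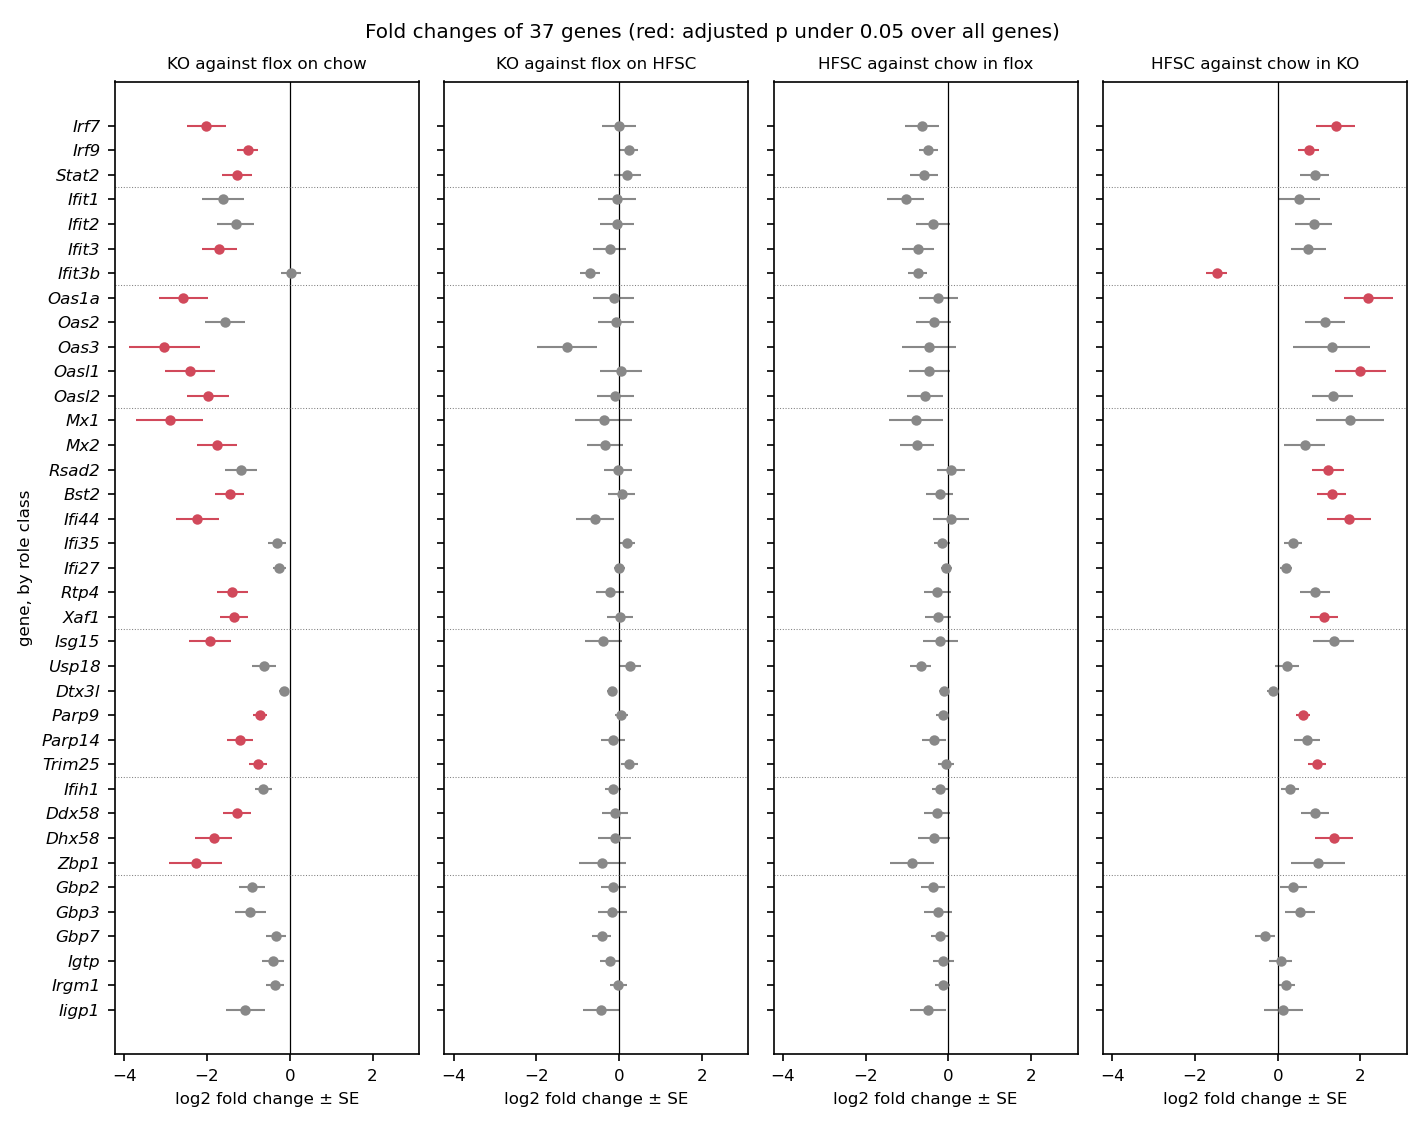
Log2 fold change with its standard error (SE) for each of the 37 genes in the 4 contrasts between a pair of groups, in red where the edgeR adjusted p was under 0.05. The 21 red points on chow all lie below 0, no point is red in the panels for KO against flox on HFSC and HFSC against chow in flox, and in KO muscle 11 red points lie above 0 and 1, Ifit3b, below it.

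The role classes follow, with the transcription factor genes first. Beside the counts of each class, 10.1% of all tested genes fell on chow and 14.9% rose on HFSC in KO muscle. Irf7, the factor that drives production of further interferon, stood at 14.2, 16.3 and 3.28 CPM in chow flox, 3.72, 2.48 and 2.11 CPM in chow KO, 4.39, 9.07, 8.62 and 7.28 CPM in HFSC flox and 6.91, 8.78 and 6.29 CPM in HFSC KO. Chow flox replicate 4 sat inside the chow KO range, and no chow KO library reached any HFSC KO library. Irf7 fell on chow with a log2 fold change of -2.02 ± 0.47 (SE, 3 libraries against 3, edgeR adjusted p = 0.023). It rose on HFSC in KO muscle by 1.40 ± 0.47 on the log2 scale (edgeR adjusted p = 0.046), and between genotypes on HFSC its difference was 0.0 ± 0.42.

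Stat2, the STAT partner in ISGF3, was at 24.4, 24.2 and 7.47 CPM in chow flox, 9.69, 6.31 and 7.11 CPM in chow KO, 9.42, 11.3, 13 and 15.8 CPM in HFSC flox and 12, 17.4 and 13.5 CPM in HFSC KO. Irf9, which gives ISGF3 its DNA binding, was at 16.7, 18.6 and 8.61 CPM, 7.95, 6.59 and 7.15 CPM, 7.66, 11, 11.3 and 11.6 CPM, and 10.4, 14.5 and 11.7 CPM in the same 4 groups. Irf9 kept its chow groups apart, if narrowly, while Stat2 did not. Both fell on chow, with log2 fold changes of -1.28 ± 0.36 for Stat2 (edgeR adjusted p = 0.0404) and -1.02 ± 0.25 for Irf9 (edgeR adjusted p = 0.0268). On HFSC in KO muscle Irf9 rose (0.75 ± 0.25, edgeR adjusted p = 0.0447), and Stat2 had a fold change of 0.89 ± 0.36 that did not pass (edgeR adjusted p = 0.0834).

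The IFIT genes encode proteins that bind RNA lacking the marks of host messages. Of these 4 genes only Ifit3 fell on chow. Ifit3 was at 19.3, 11.1 and 3.58 CPM in chow flox, 4.23, 2.52 and 3.75 CPM in chow KO, 6.15, 6.69, 7.44 and 7.01 CPM in HFSC flox and 4.87, 7.34 and 5.29 CPM in HFSC KO. Its log2 fold change on chow was -1.70 ± 0.43 (edgeR adjusted p = 0.0294). Ifit1 was at 15.7, 6.78 and 2.1 CPM in chow flox, 2.69, 2.2 and 3.19 CPM in chow KO, 4.12, 3.95, 4.04 and 4.01 CPM in HFSC flox and 2.61, 5.01 and 3.97 CPM in HFSC KO. Ifit2 was at 19.7, 8.79 and 3.2 CPM, 4.64, 3.72 and 4.44 CPM, 6.48, 6.59, 9.81 and 9.54 CPM, and 6.77, 7.96 and 8.61 CPM. In Ifit1, Ifit2 and Ifit3 chow flox replicate 2 was by far the highest library and chow flox replicate 4 was near or below chow KO. Fold changes on chow of -1.61 ± 0.50 for Ifit1 and -1.31 ± 0.45 for Ifit2 did not pass (edgeR adjusted p = 0.0559 and 0.0739). Both passed without chow flox replicate 4, at -2.06 ± 0.32 and -1.74 ± 0.29 (edgeR adjusted p = 0.00037 and 0.000674). That library was singled out on such values and lay below the chow KO range in both genes, so these passes are not independent support. Between diets in flox muscle the Ifit1 difference was -1.03 ± 0.45 (edgeR adjusted p = 0.367). The HFSC flox levels of Ifit1 were the closest together of its groups, at 4.03 ± 0.0697 CPM (mean ± SD, n = 4).

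Ifit3b, the close copy of Ifit3, had another pattern. Its levels were 7.1, 5.23 and 5.72 CPM in chow flox, 7.47, 5.19 and 5.77 CPM in chow KO, 4.02, 5.07, 2.66 and 2.77 CPM in HFSC flox and 2.0, 2.23 and 2.36 CPM in HFSC KO. All 6 chow libraries were above all 7 HFSC libraries, and all HFSC KO libraries were below all HFSC flox libraries. It was the member that fell on HFSC in KO muscle, with a log2 fold change of -1.48 ± 0.25 (edgeR adjusted p = 0.00356), and that call was made in every setting tried, with fold changes from -1.59 to -1.31. In flox muscle the diet difference was -0.74 ± 0.23 (edgeR adjusted p = 0.201) and the genotype difference on HFSC was -0.71 ± 0.24 (edgeR adjusted p = 0.342), neither of which passed. On chow its genotype difference was 0.03 ± 0.24, and under scaling by library totals it was -0.30. Ifit3, which shares the printed promoter stretch, was lower in every chow KO library than in any HFSC KO library.

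**Figure D3:**
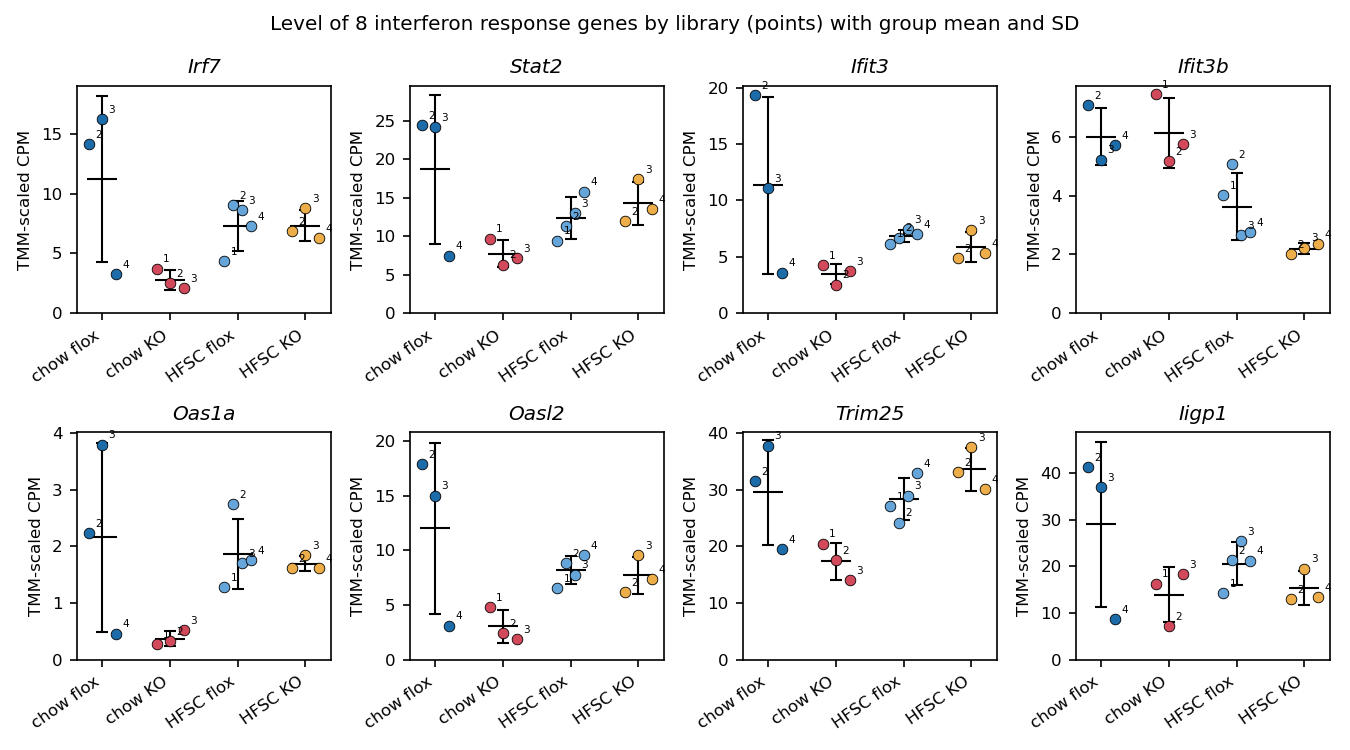
TMM-scaled CPM of 8 of the genes in each library (points, numbered by replicate) by genotype and diet, with the group mean (long bar) and SD (whiskers). In Irf7, Stat2, Ifit3, Oas1a, Oasl2 and Iigp1 chow flox replicate 4 lies far below replicates 2 and 3, while Ifit3b is lowest in HFSC KO, between 2.0 and 2.36 CPM.

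The OAS genes encode oligoadenylate synthetases, which sense double-stranded RNA and activate the nuclease RNase L, and their OAS-like relatives. Of these 5 genes 4 fell on chow, and the fifth, Oas2, did not pass (-1.57 ± 0.49, edgeR adjusted p = 0.0549) unless chow flox replicate 4 was left out (-1.99 ± 0.36, edgeR adjusted p = 0.00096). Oas1a was at 2.23, 3.79 and 0.457 CPM in chow flox, 0.273, 0.32 and 0.517 CPM in chow KO, 1.28, 2.74, 1.7 and 1.75 CPM in HFSC flox and 1.61, 1.84 and 1.61 CPM in HFSC KO. Chow flox replicate 4 and the 3 KO libraries on chow were at most at 0.517 CPM, against at least 1.28 CPM in every other library. Oas1a fell on chow (log2 fold change -2.57 ± 0.60, edgeR adjusted p = 0.0228) and rose on HFSC in KO muscle (2.19 ± 0.60, edgeR adjusted p = 0.0216). Oasl1 also passed in both contrasts, with -2.41 ± 0.61 on chow and 2.0 ± 0.62 on HFSC in KO muscle.

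Oasl2 was at 17.9, 15 and 3.09 CPM in chow flox, 4.78, 2.44 and 1.9 CPM in chow KO, 6.55, 8.81, 7.77 and 9.54 CPM in HFSC flox and 6.16, 9.54 and 7.36 CPM in HFSC KO. Oas2 was at 8.21, 10.1 and 2.13 CPM, 2.42, 2.76 and 1.72 CPM, 3.14, 8.71, 4.81 and 4.88 CPM, and 4.55, 6.65 and 4.0 CPM. In both genes every HFSC KO library was above every chow KO library. Oasl2 fell on chow (-1.98 ± 0.50, edgeR adjusted p = 0.0294), and its difference on HFSC in KO muscle of 1.33 ± 0.50 did not pass (edgeR adjusted p = 0.0673). Oas3 was scarce: it had 68, 85 and 3 reads in chow flox and 8, 2 and 3 reads in chow KO, or 1.68, 2.27 and 0.114 CPM and 0.273, 0.0799 and 0.129 CPM. In HFSC flox it was at 0.777, 1.82, 0.494 and 0.992 CPM and in HFSC KO at 0.215, 0.524 and 0.5 CPM. Its fold change on chow of -3.03 ± 0.86 (edgeR adjusted p = 0.0412) passed, but the KO libraries with 2 and 3 reads and the flox library with 3 reads were at or under the limit of 3 reads. Between genotypes on HFSC its difference was -1.26 ± 0.73 (edgeR adjusted p = 0.591).

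Among the 9 other antiviral effector genes, 6 fell on chow and 4 rose on HFSC in KO muscle. Ifi44, an interferon-induced protein of the cytoplasm, was at 5.3, 3.53 and 0.838 CPM in chow flox, 0.887, 0.479 and 0.689 CPM in chow KO, 2.43, 2.68, 4.15 and 4.24 CPM in HFSC flox and 2.4, 1.87 and 2.57 CPM in HFSC KO. It fell on chow (-2.23 ± 0.52, edgeR adjusted p = 0.0233) and rose on HFSC in KO muscle (1.72 ± 0.53, edgeR adjusted p = 0.0328). Bst2, or tetherin, which holds budding virus at the cell surface, passed in both contrasts (-1.45 ± 0.35 and 1.30 ± 0.35), as did Xaf1, a gene linked to cell death (-1.34 ± 0.34 and 1.11 ± 0.34). Mx1, Mx2 and Rtp4 passed on chow, with -2.90 ± 0.81, -1.76 ± 0.48 and -1.39 ± 0.37. Rsad2, which encodes the antiviral enzyme viperin, passed on HFSC in KO muscle (1.21 ± 0.38) and not on chow (-1.18 ± 0.38, edgeR adjusted p = 0.0621), where it did without chow flox replicate 4 (-1.52 ± 0.30, edgeR adjusted p = 0.00187). Mx1 had 23, 2 and 4 reads in chow KO, so its fold change rests on few reads.

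Ifi27 and Ifi35, the effector pair with the highest mean CPM, had the smallest differences of their class on chow. Ifi27, a small protein of mitochondria and the nuclear envelope, was at 26.9, 28.5 and 21.5 CPM in chow flox, 20.8, 22.1 and 21.9 CPM in chow KO, 24.6, 27.2, 19.9 and 27.2 CPM in HFSC flox and 20.5, 27.5 and 26.5 CPM in HFSC KO. Ifi35 was at 12.7, 13.1 and 9.11 CPM, 8.66, 9.59 and 9.91 CPM, 7.33, 12.4, 9.01 and 13.4 CPM, and 11.9, 12.9 and 11.5 CPM. Neither passed in any contrast, and on chow their differences were -0.25 ± 0.15 and -0.31 ± 0.21. Per kilobase of exon Ifi27 was also the most abundant member, at 16.5 CPM per kb over all 13 libraries, ahead of Bst2 at 11.5, Igtp at 6.43 and Ifi35 at 6.31 CPM per kb, and Oas3 was the least abundant at 0.107 CPM per kb.

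The next 6 genes encode ISG15, a ubiquitin-like protein attached to other proteins during the response, and enzymes that handle ubiquitin, ISG15 or ADP-ribose. Of these, Isg15 (-1.93 ± 0.50), Parp9, Parp14 and Trim25 fell on chow. Trim25, a ubiquitin ligase that acts on the sensor RIG-I, was at 31.5, 37.8 and 19.5 CPM in chow flox, 20.5, 17.6 and 14 CPM in chow KO, 27.1, 24.2, 29 and 33 CPM in HFSC flox and 33.2, 37.5 and 30.1 CPM in HFSC KO. The lowest HFSC KO library, at 30.1 CPM, was above the highest chow KO library, at 20.5 CPM. Trim25 fell on chow (-0.77 ± 0.21, edgeR adjusted p = 0.0385) and rose on HFSC in KO muscle (0.95 ± 0.21, edgeR adjusted p = 0.0102).

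Parp9, which works with the ubiquitin ligase Dtx3l, was at 16.9, 15.9 and 10.3 CPM in chow flox, 8.39, 9.27 and 8.7 CPM in chow KO, 11.4, 12.3, 13.5 and 15.1 CPM in HFSC flox and 13.4, 13.7 and 13.6 CPM in HFSC KO. Its chow KO libraries were below all other libraries. It fell on chow (-0.71 ± 0.17, edgeR adjusted p = 0.0236) and rose on HFSC in KO muscle (0.62 ± 0.17, edgeR adjusted p = 0.0202). Dtx3l, whose exons overlap those of Parp9, had a fold change on chow of -0.14 ± 0.13 (edgeR adjusted p = 0.462). Parp14, an ADP-ribosyltransferase, was at 34.3, 30.2 and 10.4 CPM in chow flox, 12.4, 9.27 and 11 CPM in chow KO, 16.7, 20.3, 22.5 and 19.8 CPM in HFSC flox and 16, 19 and 18.7 CPM in HFSC KO, and it fell on chow (-1.20 ± 0.32, edgeR adjusted p = 0.0319). Usp18, the protease that removes ISG15 and restrains the type I receptor, was at 6.51, 3.42 and 2.71 CPM, 3.38, 2.4 and 2.41 CPM, 2.3, 2.58, 2.86 and 2.89 CPM, and 2.9, 3.47 and 3.22 CPM. Chow flox replicate 2 stood above all other libraries for Usp18, the next of which was at 3.47 CPM, and no contrast passed. In flox muscle the difference between diets was -0.67 ± 0.26 (edgeR adjusted p = 0.316). Without chow flox replicate 4, Usp18 was among the 10 genes that fell on HFSC in flox muscle (-0.90 ± 0.24, edgeR adjusted p = 0.0394), and it also fell on chow (-0.86 ± 0.26, edgeR adjusted p = 0.0172).

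Of the 4 genes for sensors of nucleic acid in the cytoplasm, Ddx58, Dhx58 and Zbp1 fell on chow. Ddx58, which encodes the RNA sensor RIG-I, was at 15.3, 14.3 and 4.92 CPM in chow flox, 6.21, 3.96 and 4.05 CPM in chow KO, 7.83, 7.85, 10.9 and 11.3 CPM in HFSC flox and 8.77, 9.14 and 8.72 CPM in HFSC KO. Ifih1, which encodes the sensor MDA5, was at 12.6, 10 and 6.14 CPM, 6.96, 5.71 and 5.82 CPM, 7.73, 8.92, 8.57 and 8.06 CPM, and 7.59, 7.05 and 8.07 CPM. Both had chow flox replicate 4 within the chow KO range. Ddx58 fell (-1.28 ± 0.34, edgeR adjusted p = 0.0335), and Ifih1 had a difference of -0.64 ± 0.21 that did not pass (edgeR adjusted p = 0.0629). Ifih1 passed without chow flox replicate 4, at -0.87 ± 0.15 (edgeR adjusted p = 0.000576). Dhx58, encoding the regulator LGP2, fell on chow (-1.84 ± 0.45) and rose on HFSC in KO muscle (1.37 ± 0.46, edgeR adjusted p = 0.0438). Zbp1, the sensor of Z-form nucleic acid, fell on chow (-2.27 ± 0.64, edgeR adjusted p = 0.0397).

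None of the 6 guanylate-binding protein (GBP) and immunity-related GTPase (IRG) genes, a class known for strong induction by type II interferon, passed in any contrast. Their edgeR adjusted p on chow ran from 0.0779 to 0.343 and their fold changes from -1.07 to -0.33. An unadjusted p under 0.05 was reached by 3 of the 6 and by 5579 of all 16496 tested genes. DESeq2 called 1 of the 6 lower on chow, near the 14.1% of all tested genes, and none in the other contrasts. Without chow flox replicate 4 all 6 fell on chow, with fold changes from -1.49 (Iigp1) to -0.54 (Irgm1). Iigp1 was at 41.3, 37 and 8.73 CPM in chow flox, 16.3, 7.19 and 18.3 CPM in chow KO, 14.3, 21.3, 25.4 and 21.2 CPM in HFSC flox and 12.9, 19.5 and 13.4 CPM in HFSC KO. Irgm1, which acts in autophagy and in control of other GTPases of its family, was at 27.7, 24.9 and 17 CPM, 18.3, 15.8 and 20.1 CPM, 20.4, 20.6, 20.4 and 23.1 CPM, and 16.4, 28.5 and 17.7 CPM. Gbp7 was at 28.1, 24.9 and 13.3 CPM, 19.1, 14.3 and 19.4 CPM, 14.3, 22.7, 21.9 and 17.7 CPM, and 14.5, 14 and 14.4 CPM. In these 3 genes chow flox replicate 4 was below at least 2 of the chow KO libraries, and the difference between HFSC and chow in KO muscle was 0.13 ± 0.47 for Iigp1, 0.21 ± 0.21 for Irgm1 and -0.30 ± 0.24 for Gbp7. Between genotypes on HFSC the Gbp7 difference was -0.42 ± 0.23 (edgeR adjusted p = 0.558). Whether the GTPase class differed from the other classes in its response was not tested.

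The genes around the response were described from lists chosen by their place in the pathway. Beside the counts of these lists, 10.1% of all tested genes fell on chow. On HFSC in KO muscle 14.9% of all tested genes rose and 10.6% fell. Of 14 genes for interferons themselves, 5 had any read, with 16 reads over all 13 libraries and at most 5 in a library, and none was tested. Of 5 tested receptor genes 4 fell on chow: Il10rb (log2 fold change -1.29 ± 0.33), Ifngr1 (-0.63 ± 0.17), Ifnar2 (-1.24 ± 0.33) and Ifnar1 (-0.78 ± 0.21), the last named after its values were seen. On HFSC in KO muscle Ifngr1, the chain that binds type II interferon, rose by 1.37 ± 0.17 (edgeR adjusted p = 0.000911) and Ifnar2 by 1.09 ± 0.33, while the second type II chain, Ifngr2, fell (-0.54 ± 0.16). Of 9 genes for receptor kinases, STATs and IRFs, 1 fell on chow, Irf8, a factor of myeloid cells (-0.94 ± 0.25), and 1 fell on HFSC in KO muscle, Jak2 (-1.23 ± 0.28). Of 8 inhibitor genes, 1 fell on chow, Ptpn6 (-2.62 ± 0.61), a phosphatase of blood cells. On HFSC in KO muscle the phosphatase gene Ptpn2 rose (0.35 ± 0.12) and Irf2bp1 fell (-0.47 ± 0.13). The single calls among the 9 kinase, STAT and IRF genes and the 8 inhibitor genes were near the shares of all tested genes. They are not a result about those lists.

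Upstream sensors and adaptors fell for 9 of 17 tested genes on chow, led by the endosomal receptor gene Tlr8 (-3.72 ± 0.65), Ikbke (-2.43 ± 0.49) and Tlr7 (-2.48 ± 0.53), and 7 rose and 1 fell on HFSC in KO muscle. Tlr7 and Tlr8 act mainly in immune cells, and they rose there by 2.5 ± 0.53 and 3.31 ± 0.66. Of 45 tested genes on a list of other interferon-induced genes, 16 fell on chow and 15 rose on HFSC in KO muscle. Trim30a (-1.62 ± 0.29), Ifi204 (-1.64 ± 0.32) and Shisa5 (-1.44 ± 0.29) led on chow. Of 12 genes for MHC class I and the immunoproteasome, 8 fell on chow, led by H2-D1 (-1.21 ± 0.31), Tapbp (-0.70 ± 0.19) and Psmb9 (-1.14 ± 0.31). On HFSC in KO muscle H2-D1 (1.08 ± 0.31) and B2m (0.89 ± 0.27) rose, and 2 of 12 was near the 14.9% of all tested genes. No gene on any of these pathway lists passed between genotypes on HFSC or between diets in flox muscle. More genes on these lists passed on chow without chow flox replicate 4. Of the receptor genes 4 fell and 1 rose, of the kinases, STATs and IRFs 6 fell and 2 rose, and of the inhibitors 1 fell and 1 rose. Of the sensors and adaptors 14 fell and 2 rose, and 41 of the 45 other interferon-induced genes and 10 of the 12 MHC class I and immunoproteasome genes fell. Over all tested genes 22.2% then fell and 21.2% rose. In flox muscle, 10 of the 45 other interferon-induced genes and 6 of the 12 MHC class I and immunoproteasome genes then fell on HFSC. So did 4 of the 9 kinases, STATs and IRFs. Of the sensors and adaptors 2 fell and 1 rose, of the inhibitors 1 fell and 1 rose, and 1 receptor gene fell. In that contrast 4.33% of all tested genes fell and 4.47% rose.

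Markers of some other cell types moved with these genes, and those of others did not. Of all tested genes 10.1% fell on chow. On chow, 3 of 6 tested lymphocyte, 1 of 7 dendritic cell and 1 of 3 tested neutrophil markers fell. None of the 8 adipocyte or 5 red blood cell markers did. The 1 of 7 was near the share of all tested genes and is not a result about the dendritic cell list. All 12 monocyte and macrophage markers were detected in every library and all 12 fell on chow in KO muscle. Their summed level was 394, 1053 and 106 CPM in chow flox, 76.4, 58 and 38.5 CPM in chow KO, 222 to 360 CPM in HFSC flox and 221 to 275 CPM in HFSC KO, and 10 of the 12 rose on HFSC in KO muscle. Chow flox replicates 2 and 3 were thus the highest libraries for macrophage markers as for the interferon genes. Chow flox replicate 4 was above all chow KO libraries for macrophage markers. For the summed interferon genes it lay within the chow KO range, at 220 CPM. Its endothelial markers, at 260 CPM, were also within the chow KO range, and its fibroblast markers, at 1870 CPM, were above it. The 8 fibroblast markers, of which 7 fell on chow, ran from 1870 to 6805 CPM in chow flox, 732 to 1110 CPM in chow KO, 3340 to 4756 CPM in HFSC flox and 3155 to 3599 CPM in HFSC KO. The 9 endothelial markers, of which 3 fell on chow, ran from 260 to 472, 218 to 276, 374 to 549 and 490 to 522 CPM in these groups. On HFSC in KO muscle 7 of the 8 fibroblast markers rose, and 7 of the 9 endothelial markers rose and 1 fell. Of the 8 adipocyte markers 5 rose. So did 2 of 7 dendritic cell, 2 of 6 tested lymphocyte and 2 of 10 muscle fibre markers. Of all tested genes 14.9% rose and 10.6% fell there. The 2 of 10 were near that share and are not a result about the fibre list. Without chow flox replicate 4, 12 macrophage, 7 fibroblast and 7 endothelial markers fell on chow, and 6 of the 10 muscle fibre markers rose. Also lower were 5 of 6 tested lymphocyte, 3 of 3 tested neutrophil and 3 of 7 dendritic cell markers. Over all tested genes 22.2% then fell and 21.2% rose. In flox muscle, 7 of the 12 macrophage markers then fell on HFSC, against 4.33% of all tested genes. There 1 dendritic cell, 1 neutrophil and 1 endothelial marker fell and 1 muscle fibre marker rose. The part of these cells in the levels of the interferon genes was not tested.

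Red blood cell markers summed to 55.8 to 69.4 CPM in chow flox, 54.9 to 84.1 CPM in chow KO, 47.7 to 69.4 CPM in HFSC flox and 109 to 147 CPM in HFSC KO. All 5 of them rose on HFSC in KO muscle, and Hba-a1, a globin gene, also rose in KO against flox on HFSC (1.23 ± 0.16, edgeR adjusted p = 0.0347). The other blood cell lists had low summed levels. Lymphocyte markers, of which 3 of 10 had a read in every chow KO library, summed to 1.49 to 10.4 CPM in chow flox and 1.4 to 1.68 CPM in chow KO, and dendritic cell markers to 11.4 to 27.6 and 10.9 to 11.9 CPM. Neutrophil markers summed to 0.343 to 41.9 CPM in chow flox and 0.0431 to 1.3 CPM in chow KO, and the defining marker Ly6g had no read in any library of chow KO, HFSC flox or HFSC KO, nor had Retnlg in HFSC KO. Within chow flox the order of the libraries was not shared between lists. Replicate 2 was above replicate 3 for 25 of the 37 interferon genes, including all 4 IFIT genes. By class this held for 2 of 5 OAS, 2 of 4 sensor and 1 of 3 transcription factor genes. The list of other interferon-induced genes summed to 608 CPM in replicate 2 against 657 CPM in replicate 3. MHC class I and immunoproteasome genes summed to 620 against 849 CPM. Macrophage markers were at 394 against 1053 CPM and neutrophil markers at 3.02 against 41.9 CPM. Muscle fibre markers were at 121997, 95809 and 201268 CPM in chow flox and 169087 to 217420 CPM in chow KO, and none of the 10 passed on chow. The mitochondrially encoded share of reads was 6.15%, 6.59% and 9.01% in chow flox and 7.99% to 9.22% in chow KO.

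**Figure D4:**
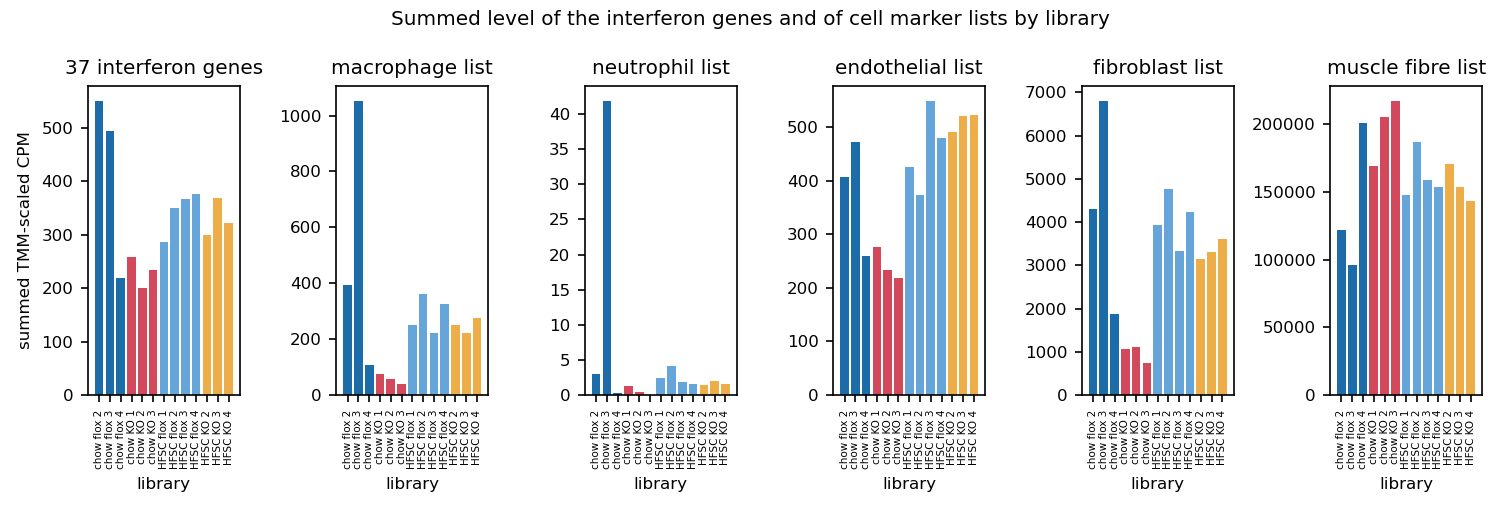
Summed TMM-scaled CPM of the 37 interferon genes and of 5 lists of cell markers in each library, each panel with its own axis from 0. Interferon genes peak in chow flox replicate 2 (551 CPM), macrophage and neutrophil markers in chow flox replicate 3 (1053 and 41.9 CPM), and the muscle fibre list is lowest in chow flox replicates 2 and 3.

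**Figure D5:**
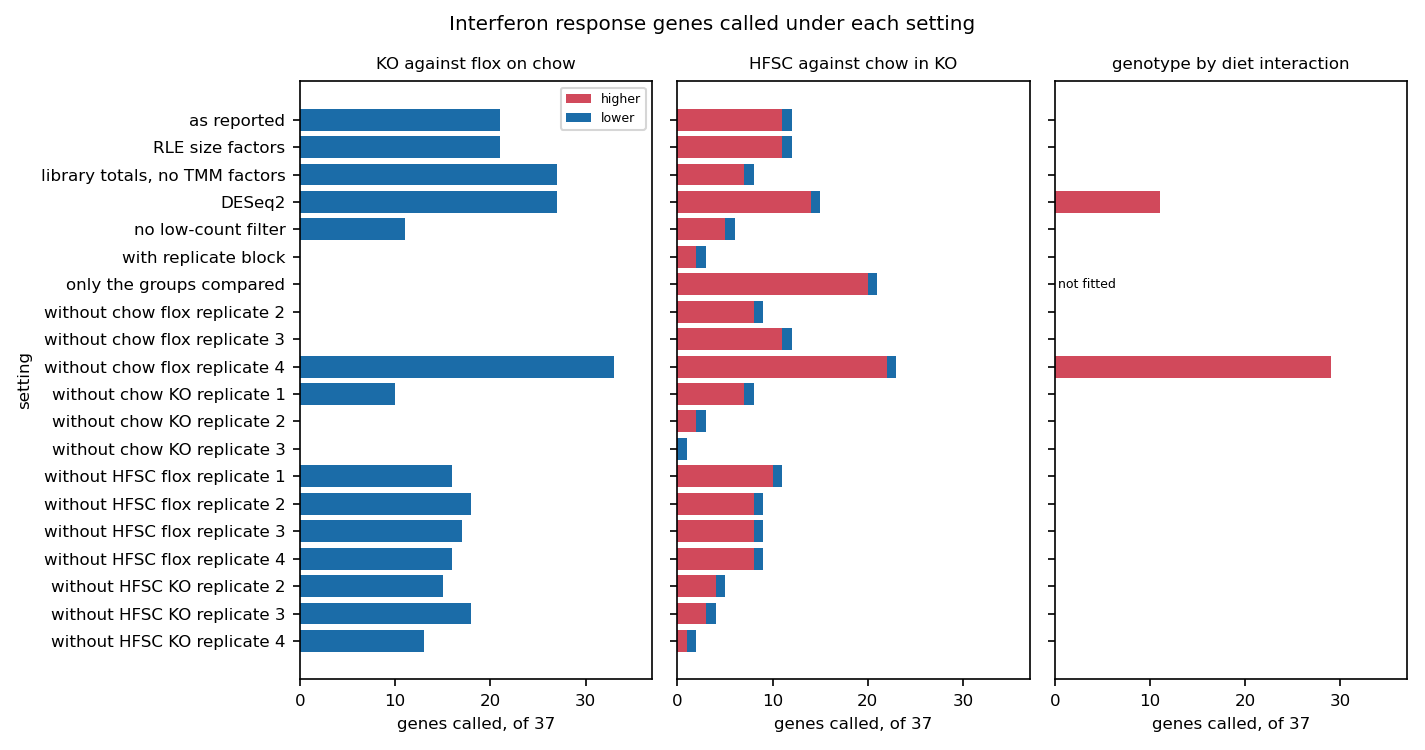
Number of the 37 interferon genes called higher (red) or lower (blue) in 3 contrasts under each processing setting. The count on chow runs from 0 to 33, that for HFSC against chow in KO muscle from 1 to 23 and that for the interaction from 0 to 29, with the highest counts where chow flox replicate 4 is left out.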

How the data were processed

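Gene expression was measured by sequencing polyA-selected RNA of mouse skeletal muscle in 13 libraries. Values in the deposited file are whole read counts for each Ensembl gene. The authors' tools, per the submitters' processing notes, were Trimmomatic 0.36, STAR 2.5.2b and, from Subread 1.5.2, featureCounts, with build GRCm38. Which annotation release, strand setting and rule for multi-mapped reads they used is not given in the sources used here. Symbols were matched for 48970 of 49315 identifiers. The test of these counts, in R 4.3.3, was that of edgeR 4.0.16: filterByExpr by group, TMM factors, robust quasi-likelihood F tests on 4 group means over all 13 libraries, and Benjamini-Hochberg adjustment over 16496 genes with a threshold of 0.05. The SE of a log2 fold change is its size divided by the square root of F. CPM use TMM-scaled totals of the tested genes, and plots use a pseudocount of 0.5 CPM. Total counts ran from 20830943 to 45710227, and floors of 3 counts cover counting error only. Replicate pairs differed beyond sampling noise. The scripts were tested on simulated data.

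The members, role classes and gene lists were chosen with earlier results of these data known. Genes given by library are the 3 with the smallest p per contrast of 2 groups and the 2 with the highest mean CPM in each of 7 role classes. Of the pathway lists, up to 3 called genes per contrast with the smallest p were named, except where stated. The alternatives were RLE (relative log expression) factors, library totals, DESeq2 1.42.0, no low-count filter, the replicate number as a block, only the groups compared, and leaving out each library.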

Additional observations from a re-analysis of the deposited data

Results flagged for a closer look

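In the 1 group of 4 libraries, HFSC flox, each of the 23 genes given by library was examined for a library far from the others by the gap to the nearest library as a share of the group's range, against Dixon's critical value. Chance flags about 1 in 20 such groups. Irf9 was at 7.66 CPM in HFSC flox replicate 1 and at 11, 11.3 and 11.6 CPM in the others, a ratio of 0.843. Irgm1 was at 23.1 CPM in HFSC flox replicate 4 and at 20.4, 20.6 and 20.4 CPM in the others, a ratio of 0.906. The cause was not tested for either gene.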

How the results depend on the processing

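For KO against flox on chow, the count of called genes was 21 and became 11 without the low-count filter and 0 with only the groups compared. It ran from 0 to 33 over leave-one-out fits. Of all tested genes 10.1% were lower, 3.79% without the filter and 0.00606% with only the groups compared. Over leave-one-out fits this share ran from 0.0% to 22.2%. For HFSC against chow in KO muscle the count was 12 and became 6 without the filter and 21 with only the groups compared. It ran from 1 to 23 over leave-one-out fits. Calls over all genes moved with these counts. Of all 16496 tested genes 2459 rose and 1742 fell at the count of 12, and 3126 rose and 2641 fell at 21. Without the filter 1871 of 32648 genes rose and 1309 fell. At the count of 1, 937 of all 16496 genes rose and 555 fell, and at 23, 3388 rose and 2739 fell. For KO against flox on HFSC the count was 0 in every leave-one-out fit. For HFSC against chow in flox it ran from 0 to 10, the highest where 4.33% of all tested genes fell. For the interaction it ran from 0 to 29, the highest where 19.2% rose. DESeq2 gave 11 there, with 8.14% of all tested genes higher. The replicate number as a block gave 0 on chow (0 of all 16496 genes) and 3 in KO muscle, 2 of them higher and 1 lower (9.05% and 5.39% of all tested genes). Libraries with the same number did not pair: their deviations correlated at -0.404 to 0.125 over 16 pairs, 2 of them over 0.1. Library totals moved the median of all genes to -0.35 on chow, where the 37 genes had a median of -1.70. Over the 23 genes given by library and all settings, 1950 values kept their side of the threshold, 147 lost it and 65 gained it, with no called value reversed. The cause of these changes was not tested. With 2 or 3 reads in some libraries, depth limits Oas3 and Mx1.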
